A study of Mus musculus with 32 samples.

Results

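Gene expression was compared between cerebral cortex of mice with the freestanding trisomy Ts65Dn;Df(17)2 and of euploid (+/+) mice. The libraries were chosen by the genotype in their labels alone, which gave 10 of Ts65Dn;Df(17)2 and 12 of +/+, 22 of the 32 libraries of the series. All mice were 6 weeks old. The Ts65Dn;Df(17)2 group had 5 females and 5 males and the +/+ group 6 of each. Each library carries the number of its own animal. The remaining 10 libraries carried another genotype, Dp(16)1/Df(16)8, and entered the fit to share its estimate of the spread. Their own values are given only near the end and, for coat colour genes, as counts. Strain, litter and the day of dissection were not given in the sources used here. Ts65Dn animals carry a small additional chromosome that joins the distal end of chromosome 16 to the centromeric end of chromosome 17, and Df(17)2 is a deletion meant to bring the chromosome 17 part back to the normal dose. No other agent or allele is named in the labels. Because every animal with the trisomy also carried the deletion and no control carried it, the effects of the trisomy and of the deletion cannot be told apart here.

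The distal part of mouse chromosome 16 holds many of the genes whose counterparts lie on human chromosome 21, and mice with an additional copy of it are used as models of Down syndrome. An additional copy of a gene is expected by arithmetic to raise its transcript to 1.5 times the euploid level where each copy is transcribed alike, and feedback or a different mix of cells can move a transcript away from that level. Among the genes of the segment are the amyloid precursor App, the kinase Dyrk1a, the receptors for interferon, and transcription factors such as Olig2 and the ETS factor subunit Gabpa, which can in turn act on genes elsewhere in the genome.

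Libraries held 6375698 to 8532009 counts in +/+ and 6392531 to 11189548 in Ts65Dn;Df(17)2, and in all 22 the levels of Xist and of Y-linked genes went with the sex on the label. Across the series 1 library, of Dp(16)1/Df(16)8, went against it. The 6 genes Tbr1, Cux2, Fezf2, Slc17a7, Neurod6 and Emx1, defining markers of cortical excitatory neurons, were detected in every library, with Slc17a7 between 428 and 1221 CPM (counts relative to the TMM-scaled total of a library). Markers of striatal medium spiny neurons were also present in every library and varied widely. Their mean over 15 genes ran from 3.53 to 7.53 log2 CPM in +/+ (median 5.18) and from 5.39 to 7.40 in Ts65Dn;Df(17)2 (median 6.96). Summed, the same 15 genes took 495 to 4682 CPM in +/+ (median 1048) and 1155 to 4121 in Ts65Dn;Df(17)2 (median 3079). All 15 had a positive log2 fold change with a median of 0.76, and 0 passed the adjusted threshold by edgeR (1 at an unadjusted p under 0.05) or by DESeq2. Drd1, a dopamine receptor of these cells, was at 12.8 to 177 CPM in +/+ and at 38.1 to 159 in Ts65Dn;Df(17)2, so no defining marker was near 0 in all libraries of a group. Calls outside the segments are therefore also given from a fit with this mean as a term. As these are bulk samples, fewer cells of a type and less RNA per cell cannot be told apart.

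Promoter sequence is shown for 3 genes that the results below return to: Gabpa, which encodes the DNA-binding subunit of an ETS-family factor and was present in an additional copy, Ifnar1, a receptor subunit for type I interferon also present in an additional copy, and Rsad2, an antiviral gene outside the segment that interferon induces. The sequences are those upstream of the RefSeq starts in GRCm38.p6, read 5′ to 3′ on the strand of the gene. For Gabpa (chr16:84834977-84835123, plus strand) the 147 bases lie between its start and that of Atp5j, a subunit gene of the mitochondrial ATP synthase that is transcribed the other way. For Ifnar1 (chr16:91484965-91485214, plus strand) and Rsad2 (chr12:26456453-26456702, minus strand) they are the 250 bases before the start. Capitals mark CCGGAAG or its reverse complement CTTCCGG, the core sequence bound by ETS factors, in the first 2 sequences, and the core of the interferon-stimulated response element in Rsad2. This core was searched as GAAA, any 2 bases and GAAA, or TTTC, any 2 bases and TTTC on the other strand. The Rsad2 sequence also holds the ETS core, which is left in lower case there.
Gabpa: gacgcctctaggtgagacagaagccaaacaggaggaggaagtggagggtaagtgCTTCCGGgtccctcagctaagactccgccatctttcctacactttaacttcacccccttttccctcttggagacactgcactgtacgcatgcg
Ifnar1: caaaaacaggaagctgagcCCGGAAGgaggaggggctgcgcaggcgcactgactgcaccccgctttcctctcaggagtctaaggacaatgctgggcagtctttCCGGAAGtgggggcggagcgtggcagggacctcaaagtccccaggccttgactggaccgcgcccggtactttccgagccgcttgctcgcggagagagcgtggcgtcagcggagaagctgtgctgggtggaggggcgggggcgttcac
Rsad2: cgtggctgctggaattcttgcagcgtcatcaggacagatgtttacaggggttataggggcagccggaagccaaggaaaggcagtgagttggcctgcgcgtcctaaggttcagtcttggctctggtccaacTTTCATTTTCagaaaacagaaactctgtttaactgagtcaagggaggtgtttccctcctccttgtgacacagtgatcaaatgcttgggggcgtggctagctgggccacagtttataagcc
The ETS core stood 93 bases before the start of Gabpa and at 231 and 147 bases before that of Ifnar1. The response element stood 120 bases before the start of Rsad2. Over both strands of all 32851 promoter windows of 300 bases (250 before and 50 after a start), the ETS core was present in 8.86% and the response element in 3.44%. Of the 77 tested genes of the trisomic segment 65 had a window, and 17 of these held the ETS core and 0 the response element. Among 23 tested interferon-stimulated genes 20 had a window, 11 held the response element and 3, Rsad2 among them, the ETS core. These are counts of genes, and a gene can have more than 1 window. Counted by window, the ETS core was in 20.2% of 84 windows of the segment genes. The response element was in 45.8% of 24 windows of the interferon-stimulated genes, and the ETS core in 12.5% of them. The windows of all promoters include genes not tested here.

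The additional chromosome 16 segment was read out as more RNA from nearly every gene that could be measured in it. The segment runs from Mrpl39 to Zbtb21 (GRCm38, chromosome 16, 84717576 to 97962622). Of 285 genes annotated in it, 77 passed the filter on low counts, and 62 of these rose at an adjusted p under 0.05 (edgeR's quasi-likelihood test, Benjamini-Hochberg adjustment over 16042 genes), where 3.97% of all tested genes changed, 1.75% up and 2.22% down. No segment gene fell, and all 77 folds were above 1, with a median of 1.504 beside 1.003 over the 15909 tested genes outside the segments. In 43 of the 77 genes the lowest Ts65Dn;Df(17)2 library lay above the highest +/+ library, where 0.33% of all tested genes had groups that did not overlap in this direction. All 10 animals were above the +/+ mean in 67 genes, 9 animals in 7 genes and 7 or 8 in the other 3. The 95% interval of the fold held 1.5 in 54 genes, lay above it in 11 and below it in 12. The 208 genes that did not pass the filter had 0 counts in the 22 libraries in 116 cases. Together they reached a median of 15.2 CPM in Ts65Dn;Df(17)2 (lowest 12.4) and of 10.7 in +/+ (highest 20.5), so the groups overlapped.

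**Figure D1:**
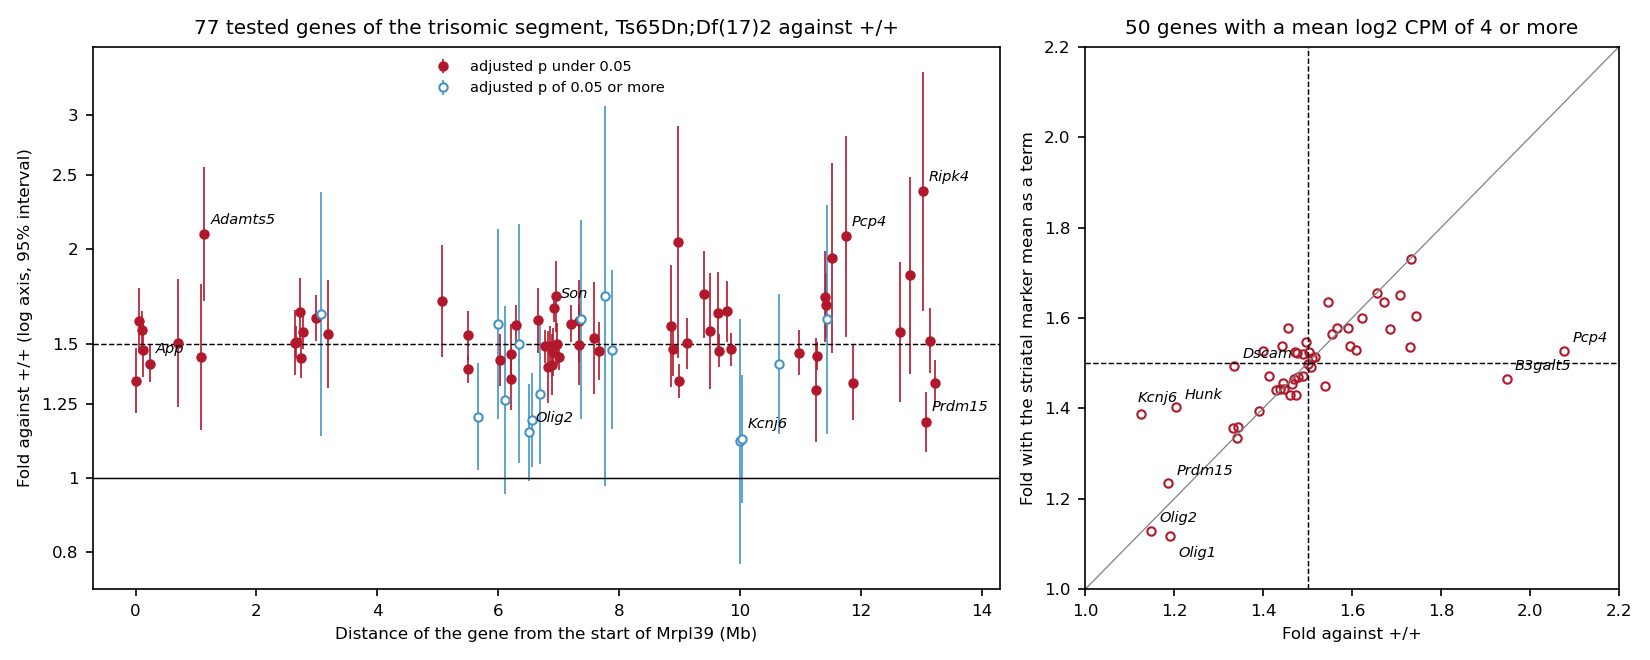
Left, fold against +/+ (log axis) of each of the 77 tested genes of the trisomic segment by the distance of the gene from the start of Mrpl39 in Mb, with 95% intervals, filled where the adjusted p was under 0.05, with lines at 1 and 1.5. Right, for the 50 genes whose mean level was 4 log2 CPM or above, the fold as reported and the fold with the mean of the striatal markers as a term: Pcp4 and B3galt5 move down and Kcnj6 and Hunk up towards 1.5, and Olig1 and Olig2 stay near 1.1.

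Genes of amyloid processing and endocytosis rose in 6 of 6 cases, with a median fold of 1.47. Over the 77 tested segment genes 80.5% rose, with a median fold of 1.504. The same share applies to each group of segment genes below, and differences between groups were not tested. App was at 1257 to 1605 CPM in +/+ (median 1454) and at 1855 to 2178 in Ts65Dn;Df(17)2 (median 2029). The groups did not overlap, and the fold was 1.41 (95% interval 1.34 to 1.49, adjusted p = 5.3e-11). Itsn1, an endocytic scaffold, rose from a median of 268 CPM (241 to 278) to 387 (356 to 404), again without overlap, at 1.44-fold (1.387 to 1.504). Synj1, a phosphatase that uncoats endocytic vesicles, rose 1.46-fold, the retromer-like subunit Vps26c 1.66-fold and Tmem50b 1.49-fold. Bace2, a protease related to the beta-secretase, was low, at 2.89 to 8.41 CPM in +/+ and 5.48 to 12.1 in Ts65Dn;Df(17)2, and rose 1.56-fold (1.26 to 1.93) with groups that overlapped.

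Of the kinases and calcineurin-linked genes 5 of 6 tested rose, with a median fold of 1.59. Dyrk1a was at 119 to 134 CPM in +/+ (median 128) and at 175 to 200.3 in Ts65Dn;Df(17)2 (median 189), 1.48-fold (1.41 to 1.55, adjusted p = 1.0e-13) and without overlap. Rcan1, an inhibitor of the phosphatase calcineurin, rose 1.47-fold (1.35 to 1.61) from a median of 45.8 to 66.8 CPM, and Tiam1, an activator of Rac, rose 1.71-fold (1.44 to 2.03) from 207 to 333 CPM. Pcp4, which binds calmodulin, was at 63.1 to 210.1 CPM in +/+ (median 91.6) and 125 to 314 in Ts65Dn;Df(17)2 (median 229), and the groups overlapped. Its fold of 2.08 (1.53 to 2.82, adjusted p = 0.0050) was among the 3 highest of the genes whose mean level was 1 log2 CPM or above. Ripk4, below 2.74 CPM in every library, had the highest fold of all 77 at 2.38 (1.66 to 3.42). The kinase Hunk was at 1.20 (1.02 to 1.42) without passing.

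Receptors for interferons rose in 3 of 4 cases. Ifnar1, whose promoter is printed above, was at 48.5 to 55.2 CPM in +/+ (median 52.4) and at 72.9 to 83.2 in Ts65Dn;Df(17)2 (median 76.2). The groups stood apart and the fold was 1.49 (1.42 to 1.57, adjusted p = 1.0e-13). Its partner subunit Ifnar2 rose 1.61-fold (1.46 to 1.78) and the interferon gamma receptor subunit Ifngr2 1.399-fold (1.253 to 1.562), also without overlap. Il10rb, shared by receptors of the interleukin 10 family, was at 2.52 to 6.34 CPM and 4.63 to 7.03 CPM, a fold of 1.29 (1.042 to 1.598) that did not pass (adjusted p = 0.15).

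Of the transcription factors 5 of 9 tested rose past the threshold, with a median fold of 1.41. Over the 77 tested segment genes 80.5% rose and the median was 1.504, and the difference was not tested. Gabpa rose from 26.1 to 37.9 CPM (median 32.5) to 43.7 to 51.2 (median 46.2), 1.47-fold (1.357 to 1.602), and Atp5j, on the other side of the promoter shown, rose 1.57-fold (1.48 to 1.66). Bach1, a repressor of genes for heme and redox metabolism, rose 1.62-fold (1.51 to 1.74) and Ets2 1.46-fold. Zbtb21 rose 1.33-fold (1.24 to 1.43) and Prdm15 1.19-fold (1.08 to 1.30), among the lowest folds of the segment. Olig1 and Olig2, the factors that specify oligodendrocytes, did not pass. Olig2 was at 12.1 to 20.5 CPM in +/+ (median 17.6) and 16.32 to 24.97 in Ts65Dn;Df(17)2 (median 19.3), a fold of 1.15 (0.992 to 1.33), and Olig1 at 39.0 to 72.1 (median 57.1) and 51.6 to 78.9 (median 69.3), a fold of 1.19 (1.03 to 1.37). Both groups overlapped in each, and the interval of each lay below 1.5. Of 14 tested oligodendrocyte markers outside the segment 0 passed by edgeR (0 at an unadjusted p under 0.05) and 0 by DESeq2, with a median log2 fold change of 0.05, and of 10 markers of oligodendrocyte precursors 1 rose, and 0 with the striatal term. The blood and endothelial factors Runx1 and Erg were at 1.47 and 1.41 without passing, at under 7 CPM.

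Chromatin genes rose in 5 of 6 tested cases (median fold 1.55). Brwd1, a reader of histone marks, rose from a median of 226 to 329 CPM at 1.45-fold (1.39 to 1.51), and Hmgn1, a nucleosome-binding protein, from 24.5 to 46.5 CPM (median 30.2) to 45.8 to 65.5 (median 57.5). The Hmgn1 groups overlapped at their edges and its fold was 1.73 (1.51 to 1.99). Morc3, the methyltransferase gene N6amt1 and Setd4 rose 1.504-fold, 1.507-fold and 1.584-fold. Mis18a, a centromere factor, was at 1.59 (1.20 to 2.12) and missed the threshold (adjusted p = 0.054).

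All 7 tested genes of RNA processing and translation rose (median fold 1.59). Son, a cofactor of splicing kept in nuclear speckles, had the smallest adjusted p of the segment (4.7e-19). It was at 487 to 558 CPM in +/+ (median 507) and at 807 to 896 in Ts65Dn;Df(17)2 (median 863), far apart, with a fold of 1.67 (1.61 to 1.74). Scaf4, which guards against early transcript ends, rose 1.39-fold (1.34 to 1.45), and the mitochondrial ribosome genes Mrps6 and Mrpl39 rose 1.61-fold and 1.34-fold. Gart, an enzyme of purine synthesis whose start lies 554 bases from that of Son on the other strand, rose 1.46-fold (1.36 to 1.58), an interval that did not meet that of Son. Of 3 tested pairs of segment genes that start within 1000 bases of each other in opposite directions, all 6 members rose, with folds of 1.57 and 1.47 for Atp5j and Gabpa and of 1.502 and 1.444 for Cryzl1 and Itsn1.

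Protein folding and turnover genes rose in 7 of 7 cases (median fold 1.47), and metabolic and redox genes in 11 of 11 (1.57), where 80.5% of all tested segment genes rose. Ttc3, a ubiquitin ligase, rose from a median of 1284 to 1860 CPM at 1.47-fold (1.40 to 1.55). Usp16, which removes ubiquitin from histone H2A, rose from 22.6 to 28.8 CPM (median 26.3) to 32.2 to 39.2 (median 38.2), 1.44-fold (1.36 to 1.53), without overlap. Cct8, of the chaperonin ring, rose 1.55-fold and Ltn1, of ribosome quality control, 1.51-fold. Sod1, the cytosolic superoxide dismutase, was at 69.8 to 90.1 CPM in +/+ (median 80.9) and 109 to 143 in Ts65Dn;Df(17)2 (median 122), 1.54-fold (1.43 to 1.66), again with groups apart. Atp5o, a second subunit gene of the ATP synthase, rose 1.596-fold (1.508 to 1.689) and Hlcs, which attaches biotin to carboxylases, 1.74-fold (1.53 to 1.99). Cbr3, a carbonyl reductase, rose 2.05-fold (1.44 to 2.90) from a median of 4.217 to 11.16 CPM with overlap, while its neighbour Cbr1 rose 1.48-fold (1.36 to 1.61).

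Channels, receptors and adhesion genes were the least often detected, with 9 of 18 listed genes tested and 6 of these risen (median fold 1.51). Grik1, a kainate receptor subunit, rose 1.55-fold (1.31 to 1.82), the adhesion molecules Jam2 and Dscam 1.61-fold and 1.33-fold, and the matrix protease Adamts5 2.09-fold (1.71 to 2.56), the latter from 2.77 to 7.23 CPM to 8.23 to 12.5 without overlap. Kcnj6, a G protein-gated potassium channel, was at 54.8 to 119 CPM in +/+ (median 84.5) and at 76.4 to 127 in Ts65Dn;Df(17)2 (median 95.9). The groups overlapped almost fully and its fold of 1.13 (0.928 to 1.37, adjusted p = 0.49) did not pass. Clic6, abundant in choroid plexus, was at 1.20 to 35.8 CPM in +/+ and 10.1 to 27.2 in Ts65Dn;Df(17)2, a fold of 1.74 (0.977 to 3.09) that did not pass. Over the whole segment, the remaining genes that did not pass were Eva1c (1.27), Lca5l (1.62), 2810407A14Rik (1.64), 4932438H23Rik (1.501), Gm16310 (1.62) and Gm41504 (1.12). Each was at under 5 CPM in every library.

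The level of a gene went with the width of its interval. Among the 50 segment genes whose mean level was 4 log2 CPM or above 46 rose, with a median fold of 1.48 and a median standard error of 0.059 on the log2 scale. Among the 27 below that level 16 rose, with a median fold of 1.58 and a median standard error of 0.15. Overlapping pairs on opposite strands (Atp5j and Gabpa, Usp16 and Cct8, Sod1 and Scaf4, Son and Donson, Pigp and Ttc3) and the nested pair Mrps6 and Slc5a3 are uncertain where the authors' counting could split reads between them.

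The spread of the folds around 1.5 was narrower with the mean of the striatal markers as a term. Of the 50 genes whose mean level was 4 log2 CPM or above, 33 lay within 0.15 on the log2 scale of 1.5-fold as reported and 45 with the term, and the standard deviation of their log2 folds went from 0.173 to 0.12. Pcp4, which striatal neurons express strongly, went from 2.08 to 1.53-fold (adjusted p = 4.6e-05 with the term) and the glycosyltransferase B3galt5 from 1.95 to 1.47-fold. Kcnj6 went from 1.13 to 1.39 and Hunk from 1.20 to 1.40, and both passed with the term (adjusted p = 0.0039 and 0.0018). Dscam went from 1.33 to 1.49. Olig1, Olig2 and Prdm15 did not move in this way, at 1.12, 1.13 and 1.23 with the term. In the 14 animals numbered 32333 to 32373 (8 and 6), 35 of the 50 lay within the same distance of 1.5, with Pcp4 at 1.91 and Kcnj6 at 1.20. The fit to this number range also held 3 animals of the remaining genotype.

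Per animal, the fold of the segment varied little. The median over the 77 genes, relative to +/+ animals of the same sex, was 1.501 ± 0.0253 (SD, n = 10), from 1.47 to 1.54, in Ts65Dn;Df(17)2 and 1.01 ± 0.021 (n = 12), from 0.9751 to 1.04, in +/+ (two-sided permutation test of the group means, p = 2e-05, the smallest that 100000 permutations can give). No animal lay between the groups. A more proximal stretch of chromosome 16 that the additional chromosome does not carry, Lipi to Ncam2 (75540514 to 81626828, 22 tested genes), gave 1.00 ± 0.072 and 1.01 ± 0.070 (p = 0.73). For the centromeric part of chromosome 17 that Df(17)2 is meant to compensate, up to the end of Pde10a at 8986648 (34 tested genes), the values were 1.03 ± 0.039 and 1.00 ± 0.025 (p = 0.054). Taken as a mean over its genes this fold was 1.08 (permutation test, p = 0.0014). Without the pseudogenes Pisd-ps2 and Gm21926, the 2 of its 34 genes that passed the threshold, the mean was 1.05 (p = 0.043) and the median 1.013 (p = 0.57), an alternative chosen after seeing the data. As a median over all 34 genes it passed without +/+ replicate 3, 4, 5 or 8 or Ts65Dn;Df(17)2 replicate 3 or 4, at 1.025 to 1.035.

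**Figure D2:**
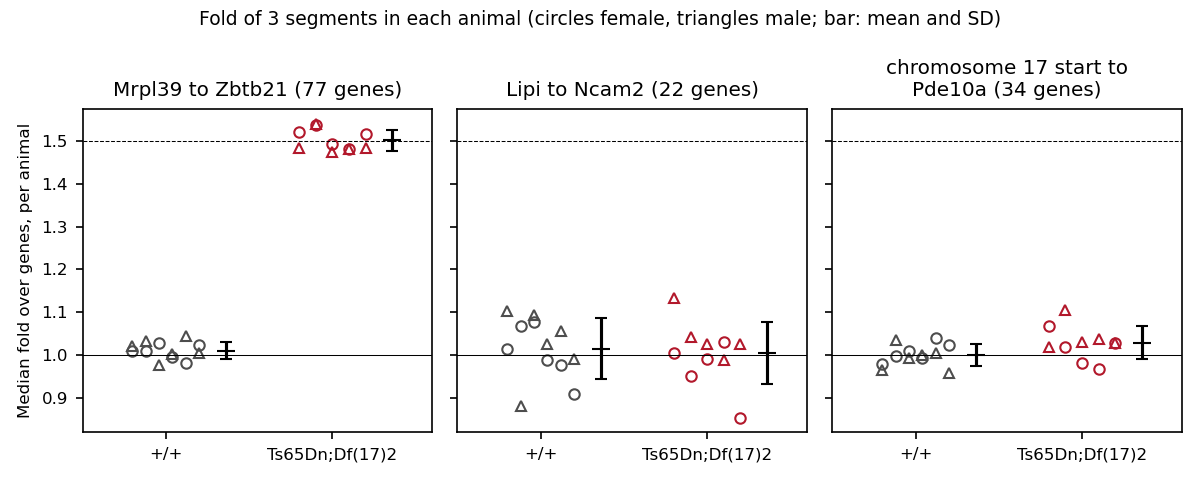
Fold of each animal in 3 segments, as the median over the tested genes of the segment relative to +/+ animals of the same sex; circles are females, triangles males, and bars the mean and SD of a group. In the Mrpl39 to Zbtb21 segment the 10 Ts65Dn;Df(17)2 animals lie between 1.47 and 1.54 and the 12 +/+ animals between 0.9751 and 1.04, and in the other segments the groups overlap.

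Some genes next to the ends of the segments changed as well. Before Mrpl39, A730009L09Rik (chromosome 16, 84515121 to 84523888) had 8 to 31 counts per Ts65Dn;Df(17)2 library and 1 to 6 per +/+ library, and rose by log2 2.79 (SE 0.30, adjusted p = 8.5e-08). After Zbtb21, B230307C23Rik (97997315 to 98031801), chosen after its values were seen, rose 1.54-fold from 7.952 ± 1.252 to 12.34 ± 1.793 CPM (SD, n = 12 and n = 10), while A630089N07Rik, which overlaps it on the other strand, was at 1.27 without passing. Beyond Pde10a on chromosome 17, the closest tested gene, 1700010I14Rik (8988333 to 9011949), was at 1.38 without passing (adjusted p = 0.44). Further on, the long non-coding RNA C87487 (9189126 to 9223664) had 13 to 29 counts per Ts65Dn;Df(17)2 library and 1 count in all +/+ libraries together. Gm49806 (9246550 to 9248548) had 15 to 44 per Ts65Dn;Df(17)2 library against 5 in all +/+ libraries. The next tested gene, Qk, an RNA-binding protein gene at 10202601 to 10319854, was at 1.08. At the start of chromosome 17, Pisd-ps2 (3076578 to 3084183) rose 1.89-fold and Gm21926 (3103175 to 3114795) 1.76-fold, both without overlap, while their neighbour Scaf8 was at 1.03. Both are pseudogenes, and their counts are uncertain where near-identical copies exist.

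Outside the segments 572 of 15909 genes changed, 3.6% of those tested, 216 up (1.36%) and 356 down (2.24%). Most changes were small: the median size was 0.35 on the log2 scale, 390 of the 572 were under 0.5 and 43 over 1. Groups that did not overlap were rare, with 8 genes higher and 1 lower in Ts65Dn;Df(17)2, and that 1 gene was 0.00623% of all tested. The count depended on the libraries used, from 201 to 1416 when a single library was left out, and 169 genes (65 up, 104 down) passed in the fit with all libraries and in each of the 22 fits without 1 library of the compared genotypes, as did 59 of the 62 segment genes. With the striatal marker mean as a term 87 genes outside passed, 66 of them among the 572. The median size of the 572 changes went from 0.347 to 0.234 on the log2 scale and their median standard error from 0.0908 to 0.0831, while the 62 segment genes stayed at 0.593 and 0.603.

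The genes named next passed in every fit without 1 library, and 23 of these 24 also with the striatal term, the exception being Abhd3 (adjusted p = 0.057). Among those that rose, the basement membrane collagens stood out. Col4a2 (chromosome 8, 11312805 to 11449287) was at 70.8 to 101 CPM in +/+ (median 87.6) and 102 to 140.1 in Ts65Dn;Df(17)2 (median 132). The groups did not overlap, and the rise was log2 0.53 (SE 0.062, adjusted p = 4.6e-07). Col4a1, its head-to-head neighbour and partner in the collagen IV network, rose from a median of 69.7 to 88.5 CPM (log2 0.41) with ranges that met at 81.7 and 81.9. Hmcn1, a large extracellular matrix protein, rose by log2 0.56 from a median of 18.5 to 25.8 CPM. Of 25 tested genes of the basement membrane and its receptors the 2 collagens alone passed, with 19 positive and a median of 0.15.

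The smallest adjusted p of all genes (3.1e-20) was that of Tyr at 87424771 to 87493512 on chromosome 7, which encodes tyrosinase of the melanin pathway. Counts ran from 75 to 168 across Ts65Dn;Df(17)2 libraries and from 0 to 3 across +/+ libraries, and its tested neighbours Folh1 and Grm5 did not pass. A table of counts per gene cannot tell transcripts of this locus from those of an introduced copy of the same sequence, and the labels mention no such copy. Smyd1, a histone methyltransferase known from muscle, was at 0.602 to 2.60 CPM in +/+ and 2.76 to 5.76 in Ts65Dn;Df(17)2, apart in all animals, and rose by log2 1.43 (SE 0.23). Exoc3, of the exocyst that tethers secretory vesicles, rose by 0.28 from 78.1 to 98.8 CPM to 99.4 to 118, also without overlap. Smaller rises were those of the kinase Cdkl3 (log2 0.51), Etnk1 of phospholipid synthesis (0.15), the focal adhesion adaptor Pxn (0.28), the microglial protease Ctss (0.44), the chromatin factor Mbd6 (0.34) and the lipase-like Abhd3 (0.28).

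Among those that fell, Arhgef17, a guanine nucleotide exchange factor of small GTPases, was the one gene below all +/+ libraries in all Ts65Dn;Df(17)2 libraries. It was at 206 to 272 CPM in +/+ (median 223) and 171 to 198 in Ts65Dn;Df(17)2 (median 186), and fell by 0.28 on the log2 scale (SE 0.039, adjusted p = 1.2e-05). Clu, the secreted chaperone clusterin, fell by 0.22 from a median of 391 to 333 CPM, and Lrp1, a receptor for apolipoprotein E, fell by 0.15 from 1048 to 944 CPM. Med13l of the Mediator complex fell by 0.24, the transcription factor Foxo3 by 0.32, the Max-binding repressor Mxd4 by 0.33 and Fgfr3, a growth factor receptor of astrocytes, by 0.23. Tmem198, a modulator of Wnt signalling, fell by 0.52, Dmtn, an actin-binding protein, by 0.29, Fam50a by 0.39 and the replication factor Wdhd1 by 0.56. Each of these 12 falling genes, Nr1d1 below included, was lower than the +/+ mean in 9 or 10 of the 10 animals. The 12 rising genes were higher in 9 or 10.

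**Figure D3:**
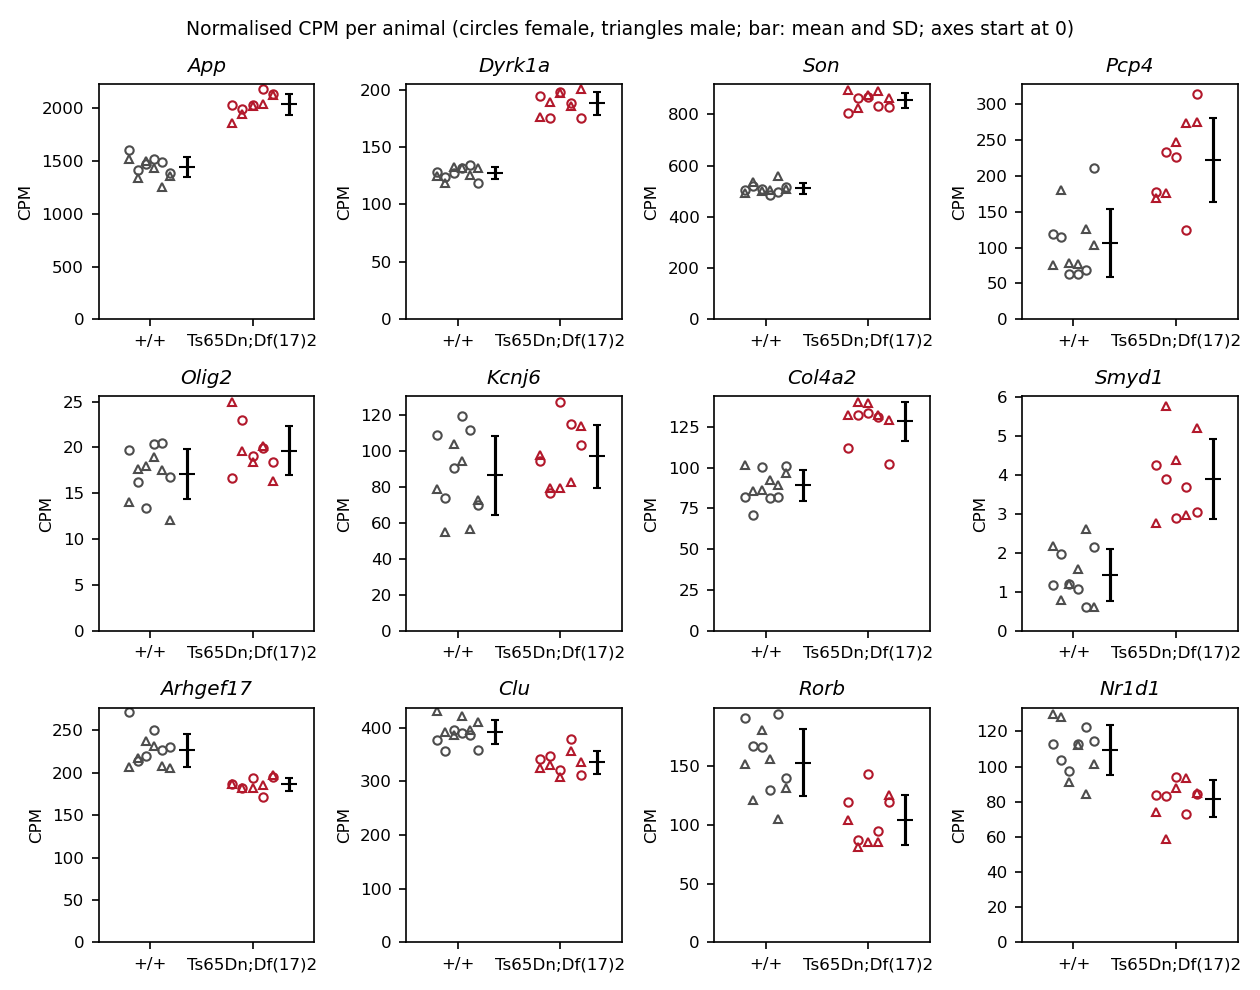
Normalised CPM of 12 genes in each animal, with axes from 0; circles are females, triangles males, and bars the mean and SD of a group. App, Dyrk1a, Son, Col4a2, Smyd1 and Arhgef17 have groups that do not overlap, while Pcp4, Olig2, Kcnj6, Clu, Rorb and Nr1d1 have groups that do.

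A set of 11 genes outside the segments passed under every one of 3 demands. The demands were each fit without a library, the fit with the striatal term, and the fit to the animals numbered 32333 to 32373. That last fit held the 14 animals of the compared genotypes and 3 animals of the remaining genotype. The 11 genes were Tyr, C87487, Gm49806, A730009L09Rik, Col4a2, B230307C23Rik, Smyd1, Hmcn1 and, chosen after their values were seen, Gm28437, D10Wsu102e and Spp1. Spp1, the secreted phosphoprotein osteopontin, rose by log2 0.68 (SE 0.15), from 4.75 ± 1.58 to 7.68 ± 1.22 CPM (SD, n = 12 and n = 10). D10Wsu102e fell by 0.28, from 508.3 ± 42.37 to 417.3 ± 32.95 CPM. Gm28437, a pseudogene on chromosome 1 whose counts are uncertain for that reason, fell by 2.06 on the log2 scale, from 4 to 37 counts per +/+ library to 3 to 8.

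**Figure D4:**
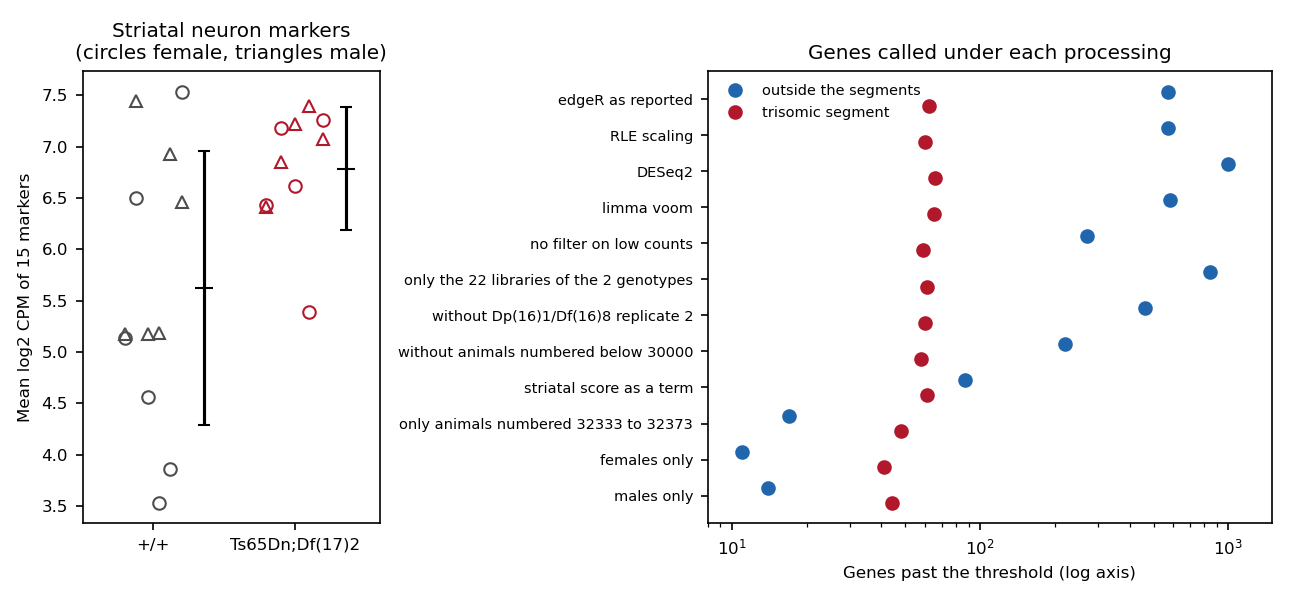
Left, mean log2 CPM of 15 striatal neuron markers in each animal with the mean and SD of each group; the 12 +/+ animals run from 3.53 to 7.53 and the 10 Ts65Dn;Df(17)2 animals from 5.39 to 7.40. Right, number of genes past the threshold (log axis) outside the segments and in the trisomic segment under each processing other than leaving out a single library: the segment stays between 41 and 66 while the count outside runs from 11 to 999.

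Some upper layer neuron genes fell. Of 15 tested markers of excitatory neurons of layers 2 to 4, 5 fell, 0 rose and 10 did not pass. Their median was -0.38 on the log2 scale. Over all tested genes outside the segments 2.24% fell, 1.36% rose and the median was 0.004. Rorb, a layer 4 factor, was at 105 to 194 CPM in +/+ (median 154) and 80.8 to 143 in Ts65Dn;Df(17)2 (median 99.3), with overlap, and fell by 0.55 (adjusted p = 0.012). Lamp5 fell by 0.76 and Cux2 by 0.50, and Cux1, chosen after its values were seen, also fell. Layers 5 to 6 had 1 fall among 15 (Fezf2, by 1.08) and a median of 0.11. Emx1, a factor of cortical progenitors and excitatory neurons, fell by 1.01, while Slc17a7, Tbr1 and Neurod6 did not pass. Of the 5 upper layer calls Rorb alone was kept in all 22 fits without 1 library. Lamp5 passed in 11 of these fits, Cux2 in 10 and Fezf2 in 6. In the fit to the animal number range above, 0 of the 15 upper layer markers passed and their median was -0.17. With the striatal term none of Rorb, Lamp5, Cux2, Cux1, Fezf2 and Emx1 passed (adjusted p = 0.13 for Rorb and 0.35 for Cux2), and the median of the upper layer list was -0.28. Per library, the mean of the layer 2 to 4 markers was 5.52 ± 0.217 log2 CPM (SD, n = 12) and 5.24 ± 0.122 (n = 10). The striatal marker mean moved the other way in the same animals, and its part in the result was not tested beyond this term.

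Of 19 tested inhibitory neuron genes 3 rose, where 1.36% of all tested genes outside the segments rose, 14 were positive and 5 negative, and the median was 0.34. Adarb2, a marker of caudal interneurons, rose by log2 0.46 from 22.9 to 40.6 CPM (median 28.7) to 30.7 to 48.9 (median 42.2), Dlx6os1 by 0.62 and Gad1, the enzyme that makes GABA, by 0.43. Striatal neurons express Gad1 and Dlx6os1 too, and with the striatal term 0 of the 3 passed. Adarb2 then stood at log2 0.37 (adjusted p = 0.053), Dlx6os1 at 0.35 (0.087) and Gad1 at 0.18 (0.25). Adarb2 was the 1 of the 3 that passed in every fit without 1 library. The meningeal and fibroblast list was positive in 10 of 10 genes with a median of 0.33, and Col3a1, a fibrillar collagen, rose by 0.87 from 5.05 to 16.3 CPM (median 9.51) to 7.44 to 27.4 (median 17.9). Col3a1 stood at 0.66 with the striatal term and did not pass (adjusted p = 0.15). Of 15 astrocyte markers Clu, Fgfr3 and Aldoc fell (by 0.22, 0.23 and 0.18) and passed with the striatal term as well. The other 12 did not pass, and 6 of the 15 were positive, up to 0.31. Among all tested genes outside the segments 2.24% fell. Among neuropeptide genes 3 of 34 rose: the opioid receptor Oprm1 by 0.77, neurotensin (Nts) by 1.40 and the receptor Npffr1 by 1.02. They stood at 0.48, 0.73 and 0.73 with the striatal term and 0 passed (adjusted p = 0.13, 0.18 and 0.28). Nts passed in 7 and Npffr1 in 6 of the 22 fits without 1 library.

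Of 20 clock genes 3 fell, where 2.24% of all tested genes outside the segments fell. The median of the 20 was -0.16, and 18 had a negative sign, where 51.15% of all tested genes outside the segments had a positive one. Nr1d1, the repressor REV-ERB alpha, was at 84.4 to 130.0 CPM in +/+ (median 112) and 58.7 to 94.3 in Ts65Dn;Df(17)2 (median 84.0), with overlap, and fell by 0.42 (adjusted p = 0.0034, and 0.019 with the striatal term). Csnk1e, a kinase of the PER proteins, fell by 0.25 and Rora by 0.37, and with the striatal term neither passed (adjusted p = 0.20 and 0.31). Rora passed in 9 of the 22 fits without 1 library. Of 16 glucocorticoid targets 2 fell, Mertk by 0.39 and Zbtb16 by 1.11, and 13 were negative (median -0.15). Neither passed with the striatal term, Mertk at -0.30 (adjusted p = 0.14) and Zbtb16 at -0.36 (0.56), and Zbtb16 passed in 5 of the 22 fits without 1 library. In the list of immediate early genes, which neuronal activity induces, 0 of 24 passed and 23 were negative, with a median of -0.32 that was -0.10 with the striatal term. At an unadjusted p under 0.05 edgeR marked 5 of these 24, and DESeq2 called 2. Outside the segments 3411 of the 15909 genes had an unadjusted p under 0.05. The time of day of dissection was not given in the sources used here.

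Interferon-stimulated genes were positive in 21 of 23 cases with a median of 0.25, and 4 rose. Among all tested genes outside the segments 51.15% were positive and 1.36% rose. Rsad2, whose response element is printed above, was at 0.361 to 2.60 CPM in +/+ (median 1.15) and 1.66 to 3.02 in Ts65Dn;Df(17)2 (median 2.151), with overlap, and rose by log2 0.92 (SE 0.25, adjusted p = 0.035). Trim25, a ubiquitin ligase of the RIG-I pathway, rose by 0.41 and the secreted Lgals3bp by 0.48. With the striatal term 0 of the 4 that rose passed while the list's median was 0.22. None of the 4 calls was kept in all 22 fits without 1 library (Rsad2 passed in 14, Trim25 in 12 and Lgals3bp in 7), and 0 passed in the animals numbered 32333 to 32373. Ifnar1, Ifnar2 and Ifngr2 stood at 1.40 to 1.61-fold in the fit with all libraries. In the animals numbered 32333 to 32373 they stood at 1.48, 1.63 and 1.43-fold.

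**Figure D5:**
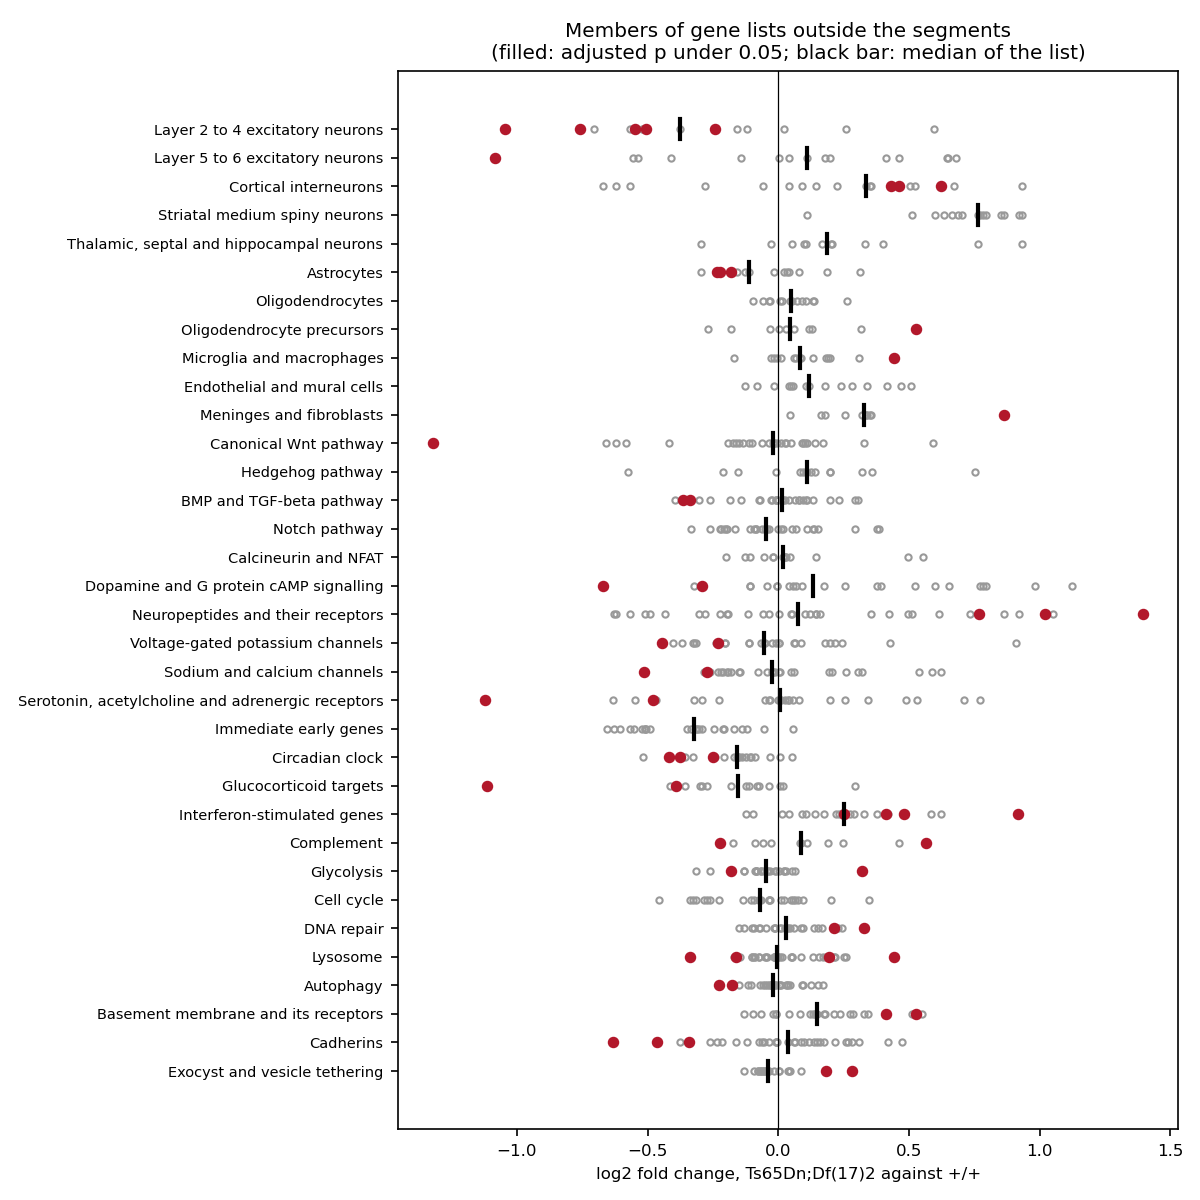
Log2 fold change, Ts65Dn;Df(17)2 against +/+, of each tested member of 34 gene lists outside the segments, filled where the adjusted p was under 0.05, with the median of a list as a black bar. Striatal markers are all positive with 0 filled, clock and immediate early genes are mostly negative, and interferon-stimulated genes are mostly positive.

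Other signalling and cellular lists changed in few members, where 3.6% of all tested genes outside the segments changed, 1.36% up and 2.24% down. Among channel genes the potassium channel subunit gene Kcnab2 fell by 0.23 and the calcium channel gene Cacna1a by 0.27. The adenylate cyclases Adcy1 and Adcy9 fell by 0.67 and 0.29, the adrenergic receptors Adra1d and Adrb1 by 1.12 and 0.48, and the cadherins Pcdh9, Cdh12 and Cdh6 by 0.34, 0.63 and 0.46. With the striatal term 0 of these 9 genes passed. The autophagy genes Atg13 and Ulk1 fell by 0.18 and 0.23, and Atg13 alone of them passed with the term. Of 30 BMP and TGF-beta pathway genes Bmp1 and Id2 fell, by 0.34 and 0.36, and of 30 Wnt pathway genes Wnt10a fell, by 1.32, and with the striatal term 0 of the 3 passed (adjusted p = 0.21, 0.28 and 0.12). Of 15 Hedgehog, 28 Notch, 14 calcineurin and NFAT and 26 cell cycle genes 0 passed by edgeR. At an unadjusted p under 0.05 these lists had 2, 5, 3 and 4 genes, and DESeq2 called 2, 0, 1 and 1. Of 28 DNA repair genes Ercc2 rose by 0.33 and Apex1 by 0.21, and with the striatal term neither passed (adjusted p = 0.20 and 0.27). Of 38 lysosome genes 2 rose and 2 fell, of 24 glycolysis and 12 complement genes 1 rose and 1 fell in each, and of 21 exocyst and tethering genes 2 rose. In each of these 4 lists 1 call passed with the striatal term. Endothelial markers (15), thalamic, septal and hippocampal markers (12) and choroid plexus and ependyma markers (3) had 0 past the threshold by edgeR, with 3, 2 and 0 at an unadjusted p under 0.05, and 0 by DESeq2, and the microglial list had Ctss alone of 15. Dnah6, an axonemal dynein, was the 1 member of 21 cilia genes that fell, by 1.56.

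By chromosome, the share of tested genes outside the segments that changed ran from 2.36% on chromosome 4 to 5.93% on chromosome 14 among the nuclear chromosomes, and 0 of 12 mitochondrial genes changed. Calls up outnumbered calls down on the X chromosome, with 22 and 7 of 506 tested (5.73%), and on chromosomes 10 (19 and 13), 12 (8 and 7), 13 (14 and 13) and 18 (7 and 5), where all chromosomes together had 216 up and 356 down, and the median log2 fold change of the X chromosome was 0.06. The difference between chromosomes was not tested. The groups held equal shares of each sex and sex was a term of the fit. With the striatal term 2 X-linked genes were up and 1 down, and in the animals numbered 32333 to 32373 0 and 0.

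The change in females and in males, which share no animal, was estimated from a separate fit to the libraries of each sex. Both fits kept the genes tested in the fit with all libraries. In the segment 42 genes rose in females and 44 in males, where 0.305% and 0.355% of all tested genes rose and 0.343% and 0.38% changed, 40 in both, with median folds of 1.52 and 1.48. Outside the segments 5 rose and 6 fell in females and 11 rose and 4 fell in males, with 4 shared. Of the 100 genes outside the segments with the smallest p in females 91 had the same sign in males, and of the 100 with the smallest p in males 85 had the same sign in females. Those with the same sign and an unadjusted p under 0.05 (edgeR) in the other sex were 41 and 38. The striatal marker mean was also higher in Ts65Dn;Df(17)2 in each sex, at 6.58 against 5.19 log2 CPM in females and 6.99 against 6.06 in males, and its part in the shared signs was not tested. In a model with an interaction of genotype and sex, the genes whose change differed by sex numbered 0 by edgeR, with 787 at an unadjusted p under 0.05. By DESeq2 they numbered 0, with 770.

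Against Dp(16)1/Df(16)8, which carries the chromosome 16 segment as a duplication within the chromosome, 8 genes differed (0.0499% of those tested), 6 of them outside the segments and 0 in the trisomic segment. Tyr was higher by log2 4.75 in Ts65Dn;Df(17)2, Gm49806 by 6.36, C87487 by 4.95 and Gm21926 by 0.90, and Gm28437 stood at -2.92. Pisd-ps2, A730009L09Rik and B230307C23Rik, the last chosen after its values were seen, were higher by 0.78, 1.83 and 0.48. Tyr had 2 to 7 counts per Dp(16)1/Df(16)8 library. Each comparison with +/+ uses the same 12 controls. In Dp(16)1/Df(16)8 against +/+, Col4a2 stood at log2 0.50, Smyd1 at 1.19 and Arhgef17 at -0.19, with adjusted p of 2.0e-06, 0.0039 and 0.0088.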

How the data were processed

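Total RNA of cerebral cortex entered library preparation after removal of ribosomal RNA, per the labels' protocols. The authors deposited 1 table of raw counts per gene, whole numbers with no normalization, for 55401 genes in 32 libraries. The tools were featureCounts (Subread 1.6.4), STAR 2.7.9a and bcl2fastq 2.20, and the builds named are GRCh38 and GRCm38.p6, per the submitters' processing notes. The strand setting of the counting, the annotation release and the role of each build are not given in the sources used here. Coordinates were matched by Ensembl identifier in the GRCm38 annotation for 55141 genes, and the 260 others hold 0.00633% of the counts.

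Genes were kept by filterByExpr of edgeR 4.0.16 (R 4.3.3), which left 16042 genes with 99.7% of the counts. Libraries were scaled by TMM factors, and all 32 libraries entered 1 quasi-likelihood model whose terms were genotype and sex. Adjusted p is the Benjamini-Hochberg value over all tested genes, with a threshold of 0.05. The standard error is the log2 fold change divided by the square root of F. Intervals are 95% intervals on the total degrees of freedom of the test, residual plus prior. A prior count of 2 was added for log2 CPM. The fit was tested on simulated data. Depth limits the precision of genes at a few counts per library. P-values measure the spread between animals. The segment bounds come from background knowledge. Alternatives were RLE scaling, DESeq2 1.42.0, voom of limma 3.58.1, no filter, subsets of libraries, each library left out, and the striatal marker mean as a term. Promoter windows are those of RefSeq for GRCm38.p6.

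The genotypes compared and all gene lists were chosen with earlier results of these data known. Named genes of the trisomic segment are 18 fixed genes, the 3 highest and 3 lowest folds among genes whose mean level was 1 log2 CPM or above, those that missed the threshold, and further members of each role list, which were chosen after their values were seen. Outside, pseudogenes and provisional symbols apart, they are the 12 rising and 12 falling genes with the smallest adjusted p among those that passed in every fit without 1 library, up to 3 members of each list, and up to 6 that differed from Dp(16)1/Df(16)8. Some members of these lists are not reported here.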

Additional observations from a re-analysis of the deposited data

Results flagged for a closer look

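Outlying single animals were looked for among the 10 Ts65Dn;Df(17)2 libraries in 121 values (named genes, segment folds and cell type marker means), and 6 were found where the gap to the next animal exceeded 0.466 of the range. Chance alone marks about 1 in 20 such groups. Apex1 was at 14.9 CPM in replicate 6, where the others had 17.4 to 19.4. Usp16, a gene of the trisomic segment, was at 32.2 CPM in replicate 1 against 35.7 to 39.2. Hunk was at 47.1 CPM in replicate 3 against 30.3 to 36.9, and Eva1c at 2.98 CPM in replicate 2 against 1.15 to 1.94. Pisd-ps2 was at 5.82 CPM in replicate 4 against 7.69 to 10.1. The mean of the striatal markers was 5.39 log2 CPM in replicate 4 against 6.42 to 7.40 in the others.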

How the results depend on the processing

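Of 42 named genes, all kept their direction in all 33 other processings. RLE scaling, DESeq2, voom, no filter, only the 22 libraries, and leaving out the animals numbered below 30000 or Dp(16)1/Df(16)8 replicate 2 changed no call of theirs. Nor did leaving out 1 library for the 18 of the trisomic segment, while the other 24 were chosen for passing in those fits. With females only 22 lost their call, with males only 19 and with the animals numbered 32333 to 32373 21. With the striatal term Abhd3 lost its call and Kcnj6 gained one. The count of changed genes outside the segments was 999 by DESeq2, 269 with no filter, 220 without the animals numbered below 30000, 87 with the striatal term, 17 in the number range, 11 in females and 14 in males, the last 3 with fewer animals. Without 1 library it ran from 201 to 1416. It was 1416 without +/+ replicate 11 and 1041 without 6, and 340, 298, 265, 245, 241 and 231 without 7, 1, 9, 10, 4 and 5. It was 201, 214, 295, 333, 358 and 361 without Ts65Dn;Df(17)2 replicates 2, 7, 8, 4, 9 and 1. The cause was not tested. The count of trisomic genes was 41 in females and 59 to 65 without 1 library. In all these subsets of libraries the filter on low counts was applied anew. The segment fold stayed at 1.494 to 1.51. The Lipi to Ncam2 fold, not told apart from +/+, was above the +/+ mean with the mean over genes (1.018) and with genes of log2 CPM 2 or more (1.019), and ran from 0.9897 to 1.021 without 1 library, among them 1.014 without +/+ replicate 7. The chromosome 17 fold was 1.084 with the mean over genes, 1.05 with the mean without Pisd-ps2 and Gm21926 (chosen after seeing the data) and 1.02 to 1.035 without 1 library. No paired analysis was possible because the labels give animal numbers and no replicate number that the genotypes share.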

Other observations

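The agouti gene (symbol a), a coat colour gene not tested for its low counts and chosen after its values were seen, had 0 counts in all 12 +/+ libraries together (of 90142531 counts, which allows up to 0.0333 CPM), 0 to 9 per Ts65Dn;Df(17)2 library (44 in all, in 9 of 10 libraries) and 2 to 16 per Dp(16)1/Df(16)8 library (87 in all). As for Tyr, these counts cannot tell the locus from an introduced copy of its sequence, and the labels mention none. Other pigment cell genes did not follow Tyr: Dct had 0 to 7 counts per Ts65Dn;Df(17)2 library and 0 to 8 per +/+ library, Pmel 0 to 5 and 0 to 3, Tyrp1 0 to 7 and 0 to 3, and Mlana 1 and 2 counts in all. This limit covers counting error only, because the labels name no molecular identifiers that would tell PCR copies apart.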
